A study of Mus musculus with 12 samples.

Results

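The potassium channel genes of the mouse are gathered here as every gene on the Illumina Mouse WG-6 v2 bead array whose symbol starts with Kcn. That rule found 88 genes among the 19057 genes measured, and it took no account of their levels. Their 173 probes were reduced to 1 per gene, that whose mean over all 12 arrays was highest. Total RNA came from the AVC, the atrioventricular canal where valve cushions later form between atrium and ventricle, and from the ventricular region that the labels call LV, dissected from mouse embryos at embryonic day 9 or 10. The 4 groups held 3 arrays each, AVC E9 and AVC E10 from the canal and LV E9 and LV E10 from the ventricular region. Neither the labels nor the methods give a strain, genotype or treatment, and neither says whether the 3 replicates of a group were separate litters or pools, so the p-values reflect only how far these arrays differed, and part of that spread may be technical. The dissected tissue held all of its cell types, and in such bulk RNA fewer cells of a type and less RNA per cell cannot be told apart.

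Potassium channels let potassium ions leave the cell and thereby return the membrane to its resting voltage after each action potential. The family falls into classes by structure: voltage-gated channels open on depolarisation, inward rectifiers (Kcnj) set the resting voltage, tandem-pore channels (Kcnk) carry a leak, calcium- or sodium-activated channels (Kcnma, Kcnn, Kcnt, Kcnu) answer to ions inside the cell, and auxiliary subunits (Kcnab, Kcne, Kcnip, Kcnmb) alter how the pore proteins gate and travel to the membrane. In the heart, different cell types carry different sets of these channels, and the sets change as the early tube becomes chambers separated by the slowly conducting canal.

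The arrays of a group mostly resembled each other. For 3 of the 12 arrays, however, the most similar array lay in another group: replicate 1 of LV E10 was closest to replicate 2 of LV E9, with a correlation across genes of 0.969, and the first AVC E10 array and the second AVC E9 array were each other's closest, at 0.979. A list of 6 genes for AVC myocardium held Tbx2, Tbx3, Bmp2, Rspo3, Cav1 and Hcn4. Of these, 4 were called higher in AVC than in LV at E9 and 5 at E10. Hcn4, the pacemaker channel gene among them, was not above background on any array. The study reported Rspo3 and Cav1 as AVC-enriched from its own arrays and placed Cav1 in the endocardium. It also named Tbx2 and Tbx3 among the AVC genes that its own arrays shared with earlier data sets. Tbx2, Tbx3, Rspo3 and Cav1 therefore give no independent check of the dissection. Of 9 measured genes of chamber myocardium, 2 were called lower in AVC at each age, and 8 were above background in every group.

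Of the 88 genes, 29 (33%) were above background in at least 1 group, against 9931 of all 19057 genes (52.1%). A gene counted as above background on an array when its intensity exceeded the size of the array's most negative value, which ran from 22.4 to 29.6 between arrays, and in a group when it did so on all 3 arrays. The number was 24 in AVC E9, 18 in LV E9, 23 in AVC E10 and 19 in LV E10. Over all genes it was 9308, 8893, 9374 and 8841 in the same order, so more genes of any kind passed in AVC. The limits were 22.6 to 24.5 on AVC E9 arrays and 24.7 to 28.5 on LV E9 arrays. In all 4 groups, 13 Kcn genes were above background. A further 14 genes exceeded the limit on some arrays (up to 6, for Kcnq1ot1) without filling a group. The other 45 did so on none, with values between -20.3 and 23.3. A value under the limit, here or in the lists of other genes, does not show that a transcript was absent, since a probe may bind weakly.

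By class, the auxiliary subunits had the highest share, with 8 of 15 above background in a group (53.3%), followed by 5 of 14 tandem-pore channels (35.7%), 4 of 13 inward rectifiers (30.8%), 10 of 35 voltage-gated channels (28.6%) and 2 of 8 calcium- or sodium-activated channels. None of the 3 remaining transcripts, Kcnq1ot1, Kcnmb4os1 and Kcnrg, was above background in a group. The 13 genes above background on all 12 arrays were the voltage-gated Kcng2, Kcnh2 and Kcnh6, the inward rectifiers Kcnj4 and Kcnj5, the tandem-pore genes Kcnk3, Kcnk5 and Kcnk6, the calcium-activated Kcnn4, and the auxiliary genes Kcnab1, Kcnab2, Kcne1 and Kcnmb1.

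**Figure D1:**
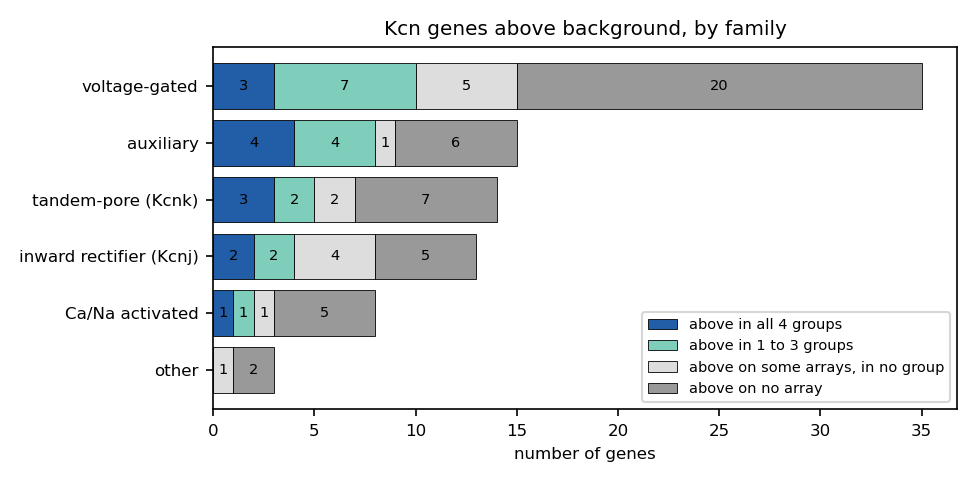
Number of Kcn genes (horizontal axis) in each class (vertical axis), split by where they were above background. The 20 voltage-gated genes above background on no array are the longest segment, and the auxiliary subunits have the largest share of genes above background in a group (8 of 15).

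Across samples, the 29 genes differed in how far they ranged, from 29.8 to 53.2 for Kcnj4 but from 51.7 to 347 for Kcnn4. Wide ranges also occurred within a group, as for Kcnn4 in LV E10 (58.1 to 347). A few genes stood out by region or age. The heat map of deviations from each gene's own mean shows Kcna5 high on all 6 AVC arrays and below the limit on all 6 LV arrays, Kcne1 and Kcne1l high on nearly all E10 arrays, and Kcnip3, Kcnmb1 and Kcnf1 high at E9. Because each probe binds with its own strength, levels are compared only within a gene.

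**Figure D2:**
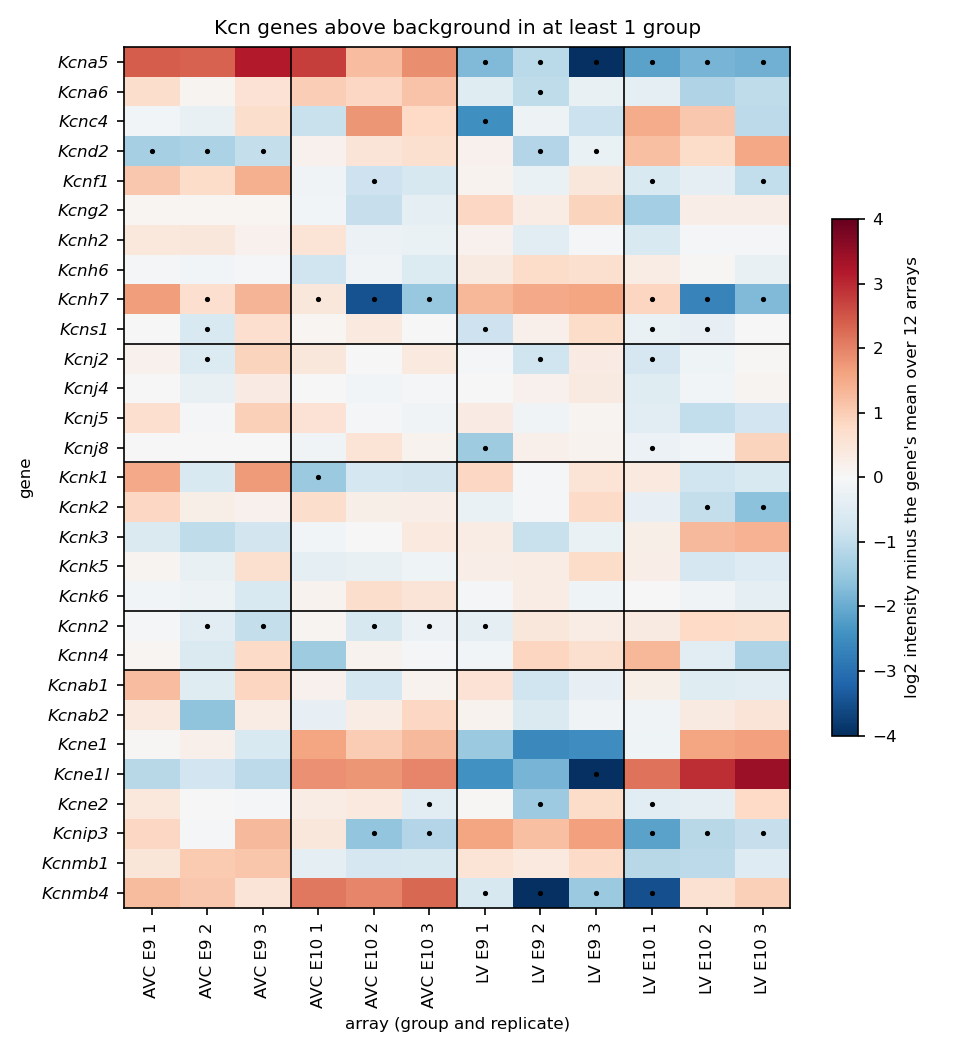
Log2 intensity of the 29 genes above background in at least 1 group (vertical axis) on each of the 12 arrays (horizontal axis), with the gene's mean over the 12 arrays subtracted and the colour limited to 4 in both directions. Dots mark values not above the background limit of that array, which for Kcna5 are the 6 LV arrays.

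The first question was which of these genes differed between canal and ventricle. At E9, Kcna5 was the 1 gene of the 88 (1.14%) that passed the test, and it was higher in AVC. Among all 19057 genes 1.02% were called in that comparison, so the share of Kcn genes was close to the background. Kcna5 encodes the pore of the ultrarapid delayed rectifier current, known from atrial muscle. Its intensities were 179, 172 and 298 on the AVC E9 arrays and 9.7, 15.6 and -0.157 on the LV E9 arrays. All 3 AVC values lay above background and all 3 LV values below it, without overlap.

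Kcna5 was therefore at least 7.79-fold higher in AVC E9 than in LV E9, taking the lowest detectable signal in place of the LV values. The limma fit, in which values under 1 were set to 1, gave a log2 difference of 5.29 ± 0.91 (SE) with an adjusted p of 0.0386. Its size depends on the third LV array, since without LV E9 replicate 3 the difference was 4.08 with an adjusted p of 0.0144. The call also held without LV E9 replicate 2 or LV E10 replicate 1. It was lost without any 1 of the other 9 arrays, namely the 6 AVC arrays, LV E9 replicate 1, LV E10 replicate 2 and LV E10 replicate 3, where the adjusted p ran from 0.0529 to 0.117 and the difference from 5.04 to 5.72. It was also lost after quantile normalization (adjusted p of 0.0514) and when only the groups compared were fitted (0.197). At E10 the AVC arrays read 228, 78.8 and 119 and the LV arrays 7.53, 9.12 and 8.81, again without overlap. There Kcna5 was at least 5.16-fold higher in AVC with a log2 difference of 3.93 ± 0.91 (SE) in limma, but its adjusted p was 0.0727. It passed without LV E9 replicate 3 (adjusted p of 0.0116), with a floor of 16 (0.00677), with an offset of 32 (0.000611) and when only genes above background were tested (0.0421).

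Kcna6, a delayed rectifier gene known mainly from neurons, was the 1 gene of the 88 called between the regions at E10, where 2.30% of all genes were called. The AVC E10 arrays read 106, 94.7 and 117 and the LV E10 arrays 41, 23.3 and 26.3. Every AVC value was more than the highest LV value, and the log2 difference was 1.85 ± 0.27 (SE), or 3.61-fold, with an adjusted p of 0.0149 in limma. The call was lost without AVC E10 replicate 3 (1.78, adjusted p of 0.0701) and without LV E10 replicate 2 (1.69, adjusted p of 0.0548).

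At E9 the Kcna6 intensities were 86.8, 57.8 and 79 in AVC and 38.1, 26.3 and 43.6 in LV. The groups did not overlap there either, with a log2 difference of 1.06 ± 0.27 (SE) and an adjusted p of 0.128. A second probe of Kcna6 had means of 79.4 in AVC E9 and 110.0 in AVC E10 and was above background on no LV array, with log2 differences of 2.71 and 3.33 at the 2 ages. The other 2 probes of the gene were above background on no array.

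Kcna5 and Kcna6 are neighbours. In the RefSeq annotation of assembly GRCm38.p6 they lie on chromosome 6 with Kcna1 as the gene between them, and Kcna1 was above background on no array. Because these 2 genes are the ones called between the regions, a promoter window of 250 bases is shown for each from RefSeq (GRCm38.p6, minus strand for both, 5′ to 3′). The windows lie at chr6:126535556-126535805 for Kcna5 and chr6:126740675-126740924 for Kcna6. Capitals mark matches, on either strand, to GGTGTG (the core of the T-box motif), AAGTG (the Nkx2-5 type motif) or AGATAA (the GATA type motif), letters that do not overlap between motifs here. Among 32851 promoter windows of that length, 16.3% hold GGTGTG, 40.7% AAGTG and 9.99% AGATAA.
Kcna5: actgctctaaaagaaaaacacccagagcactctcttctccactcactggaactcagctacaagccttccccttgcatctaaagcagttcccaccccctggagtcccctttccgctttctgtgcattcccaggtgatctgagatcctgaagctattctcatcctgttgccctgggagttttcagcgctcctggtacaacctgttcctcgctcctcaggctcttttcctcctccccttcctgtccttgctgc
Kcna6: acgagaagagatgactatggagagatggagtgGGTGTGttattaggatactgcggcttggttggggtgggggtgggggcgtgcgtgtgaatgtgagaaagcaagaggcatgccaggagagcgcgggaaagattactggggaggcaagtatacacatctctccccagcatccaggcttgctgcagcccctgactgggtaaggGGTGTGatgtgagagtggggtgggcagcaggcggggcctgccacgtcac
The Kcna6 window held 2 matches to GGTGTG and the Kcna5 window none of the 3 motifs. The Kcna6 window overlaps the annotated gene, which spans 126708328 to 126740834, and the second match printed lies inside that span.

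**Figure D3:**
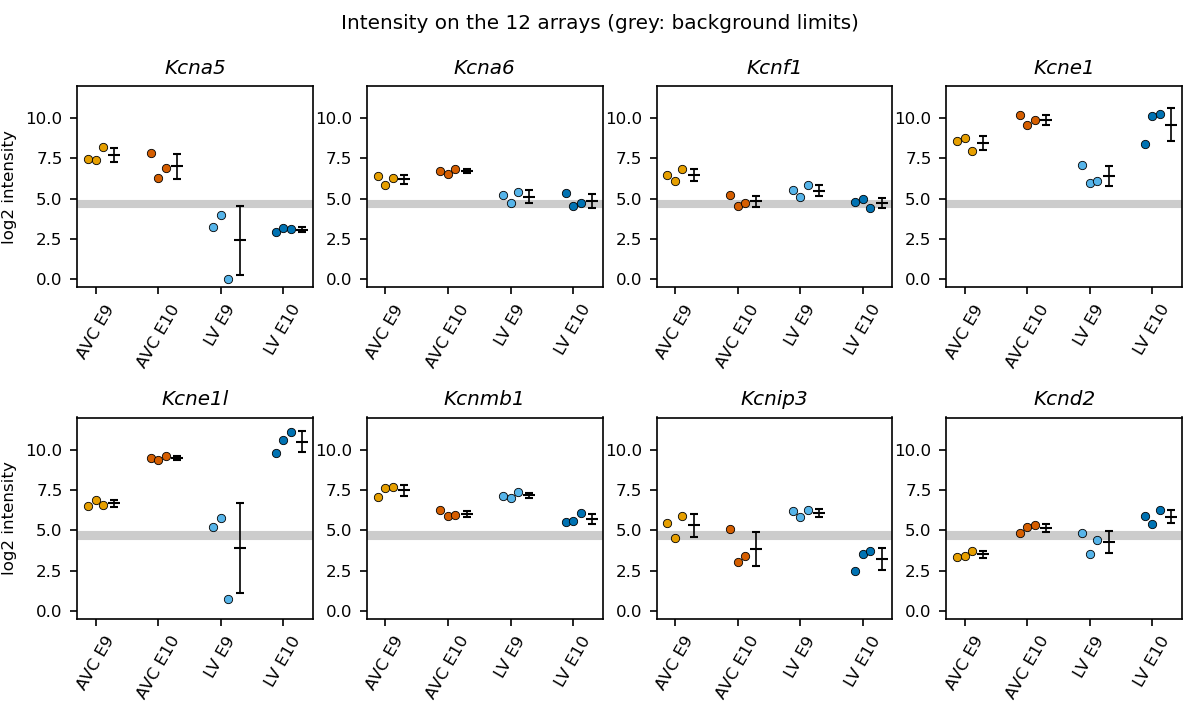
Log2 intensity (vertical axis) of 8 Kcn genes on the 3 arrays of each group (horizontal axis), with values under 1 set to 1; points are arrays, the black mark and bars beside them the mean ± SD of the 3 values, and the grey band the range of the array background limits. Kcna5 separates the regions at both ages, and Kcnmb1 separates the ages in both regions.

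The remaining genes did not pass the test between the regions. Counting all 88 at E9, the groups did not overlap for 10 genes (17.1% of all genes did not overlap), and at E10 for 18 (15.8% of all genes). At an unadjusted p under 0.05 the numbers were 9 at E9 (8 higher in AVC; 11.5% of all genes) and 12 at E10 (9 higher in AVC; 13.9% of all genes). The median log2 difference over the 88 genes was 0 at E9 and 0.03 at E10, against 0 and 0.07 over all genes.

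Among the auxiliary subunits, Kcnmb4, a beta subunit of the large-conductance calcium-activated channel, read 87, 75.7 and 51.7 in AVC E9 and 22.7, -2.1 and 12.8 in LV E9. It was above background on all AVC arrays and on none of LV E9, so AVC was at least 2.60-fold higher there, but with values near the floor the log2 difference was 3.40 ± 1.38 (SE) and the adjusted p 0.382. At E10 it read 155, 138 and 176 in AVC against 3.13, 54.6 and 69.9 in LV, with a difference of 2.77 ± 1.38 (SE) and an adjusted p of 0.445. Its second probe differed in the same direction, by 2.09 at E9 and 1.70 at E10.

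Kcne1 encodes the partner that slows Kcnq1 into the slow delayed rectifier current. At E9 it read 392, 438 and 249 in AVC and 137, 63.5 and 67.7 in LV, with no overlap, a log2 difference of 2.06 ± 0.52 (SE) and an adjusted p of 0.130. Without LV E10 replicate 1 that difference passed, at an adjusted p of 0.0313. At E10 the regions overlapped, and the difference of 0.27 ± 0.52 (SE) turned to -0.32 without LV E10 replicate 1.

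Several tandem-pore and inward rectifier genes differed at E10 by 0.6 to 1.4 on the log2 scale without being called. Kcnk2, a stretch-sensitive leak channel, read 69.5, 49.5 and 51.3 in AVC E10 and 33.9, 22 and 13.4 in LV E10, a difference of 1.38 ± 0.39 (SE) with an adjusted p of 0.129. Kcnk6, another leak channel gene, differed by 0.62 ± 0.20 (SE; adjusted p of 0.170) and Kcnj5, which forms the acetylcholine-gated atrial channel with Kcnj3, by 0.85 ± 0.30 (SE; adjusted p of 0.224). In each of these the 3 AVC arrays lay above the 3 LV arrays at E10.

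Lower means in AVC were not called at either age. Among the 29 genes above background in at least 1 group, Kcne1l, an X-linked relative of Kcne1, had the lowest difference at E10. It was -1.003 ± 1.13 (SE; adjusted p of 0.815), with the 3 AVC arrays below the 3 LV arrays. The acid-sensitive leak channel gene Kcnk3 stood at -0.87 ± 0.37 (SE; adjusted p of 0.344), with overlap. The small positive differences of Kcnab1, Kcnab2, Kcnc4, Kcne2, Kcnf1, Kcnj4 and Kcnk5 at E10 turned negative after quantile normalization and after scaling to the 75th percentile, so the number of genes lower in AVC depends on the scaling. Kcnh6, a relative of the rapid delayed rectifier gene Kcnh2, read 58.3, 57.9 and 58.5 in AVC E9 and 79.3, 103 and 96.6 in LV E9, a difference of -0.66 ± 0.19 (SE) with an adjusted p of 0.188. Kcnn2, a small-conductance calcium-activated channel gene, was above background as a group only in LV E10, at 31.1, 42.5 and 40.3 against 26.3, 15.8 and 20.8 in AVC E10, a difference of -0.87 ± 0.31 (SE) with an adjusted p of 0.221. Kcnc4, a voltage-gated channel gene, was among the larger differences at E9 (1.27 ± 0.91, SE). It spread too widely between replicates to be read, from 33.5 to 212 within AVC E10 alone.

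**Figure D4:**
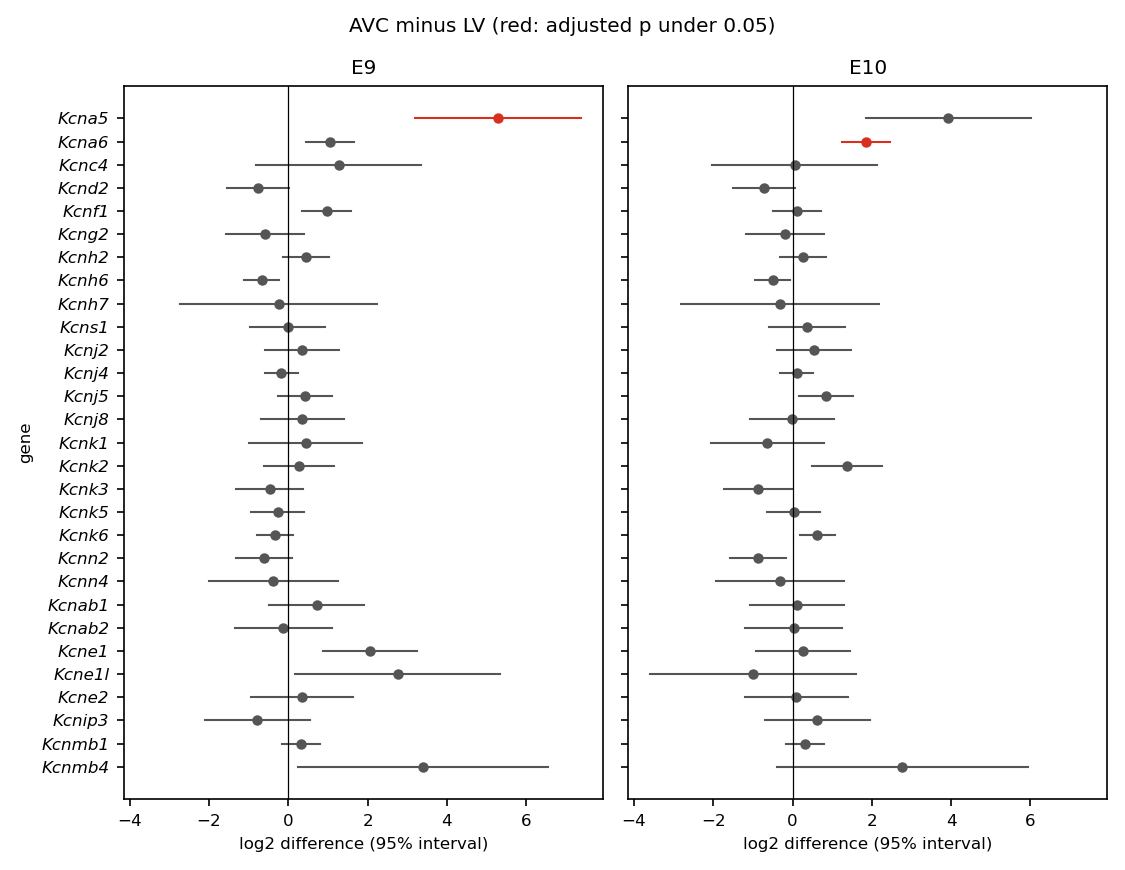
Log2 difference between AVC and LV (horizontal axis, positive where AVC is higher) at E9 and E10 for the 29 genes above background in at least 1 group (vertical axis), with 95% intervals from the limma fit; red marks an adjusted p under 0.05. Kcna5 is the red gene at E9 and Kcna6 the red gene at E10.

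Genes of other cell types were read beside the regional results. Of 8 genes known for atrium and sinus venosus, 1 was called higher in AVC at each age (Nr2f2 at E9 and Shox2 at E10), and their mean log2 intensity was 6.71 to 7.56 on AVC E9 arrays against 5.25 to 6.06 on LV E9 arrays, and 7.09 to 8.68 against 5.17 to 6.48 at E10. Of these genes Hcn4 was above background on no array, and Sln and Shox2 on no LV array. Their part in the Kcna5 result was not tested. Beside Kcna6, none of the 5 measured neural genes (Sox2, Pax6, Sox10, Elavl3 and Tubb3) was above background in any group, and their summed intensity was 4.41 to 35.9 on AVC E9 arrays, 14.5 to 44.0 on LV E9 arrays, 42.1 to 78.4 on AVC E10 arrays and 20.0 to 51.1 on LV E10 arrays.

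The second question was how the genes changed between the 2 days. In the AVC, 2 of the 88 genes (2.27%) were called between E10 and E9, where 0.551% of all genes were called, and both fell. In the LV, 4 of the 88 (4.55%) were called, against 2.37% of all genes, and 2 rose while 2 fell. All 4 were auxiliary subunits, 4 of the 15 auxiliary genes measured. The groups did not overlap for 15 genes in the AVC (16.2% of all genes) and 14 in the LV (20.4% of all genes), and an unadjusted p under 0.05 was reached by 11 (12.5% of all genes) and 14 (19.6% of all genes). The median log2 difference was 0 in each region over the 88 genes and over all genes.

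Kcnmb1, the beta subunit that raises the calcium sensitivity of large-conductance channels in smooth muscle, fell in both regions. It read 136, 201 and 208 in AVC E9 and 75.2, 60.2 and 61.7 in AVC E10. In the LV it read 141, 128 and 163 at E9 and 45.2, 47 and 67.9 at E10. Every E9 array lay above every E10 array, and Kcnmb1 stayed above background on all 12 arrays.

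The fall was 1.45 ± 0.21 (SE) on the log2 scale in each region, or 2.73-fold, with an adjusted p of 0.0353 in the AVC and 0.0218 in the LV by limma. In the AVC the call was lost without AVC E9 replicate 2 or 3, AVC E10 replicate 2 or 3, any 1 of the LV E9 arrays, or LV E10 replicate 2 (-1.34 to -1.45, adjusted p from 0.0521 to 0.141), and also after quantile normalization (adjusted p of 0.0630) or scaling to the 75th percentile (0.0506). In the LV it was lost without any 1 of the LV E9 arrays or LV E10 replicate 2 (-1.36 to -1.53, adjusted p from 0.0517 to 0.0950). The pore gene of that channel, Kcnma1, was above background on no array. Of 5 genes known for smooth muscle, which were read beside this result, 1 (Tagln) was called between the ages, lower in LV E10. Their summed intensity was 25106 to 31369 in AVC E9 and 23597 to 24591 in AVC E10, and 31090 to 36310 in LV E9 and 26468 to 27274 in LV E10. Acta2 made up most of these sums, with means of 26952 in AVC E9 and 31879 in LV E9. Myocd, not called, had means of 853 in AVC E9 and 382 in AVC E10, with overlap. In the LV its means were 1109 at E9 and 275 at E10, without overlap. In the AVC the means of Tagln, Cnn1 and Myh11 were higher at E10. Myh11 was above background on no array of AVC E9, LV E9 or LV E10. Cnn1 was above background in no group, with means of 8.85 to 22.8. Whether the list marked smooth muscle cells in this tissue was not tested, nor was their part in the fall of Kcnmb1.

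Kcnf1, an electrically silent subunit that modifies other voltage-gated channels, fell in the AVC. It read 87.9, 69.8 and 113 in AVC E9 and 37.7, 23.4 and 27 in AVC E10, without overlap. The log2 difference was -1.62 ± 0.27 (SE), a 3.08-fold fall with an adjusted p of 0.0479 in limma. That call was retained without AVC E10 replicate 1 or LV E10 replicate 1 and lost without any 1 of the other 10 arrays, the 3 AVC E9 and 3 LV E9 arrays and replicates 2 and 3 of both E10 groups, where the difference ran from -1.44 to -1.79 and the adjusted p from 0.0597 to 0.181. It was also lost after quantile normalization (adjusted p of 0.0507) and with the mean of all probes of the gene (-0.81, adjusted p of 0.211). In the LV it read 46.4, 35.1 and 56.8 at E9 and 27.7, 32.1 and 21.2 at E10, a difference of -0.76 ± 0.27 (SE) with an adjusted p of 0.164.

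Kcne1 rose in the LV. From 137, 63.5 and 67.7 at E9 it reached 342, 1148 and 1203 at E10, so every E10 array lay above every E9 array and replicate 1 of LV E10 was the lowest of its group. The log2 difference was 3.22 ± 0.52 (SE), or 9.29-fold, with an adjusted p of 0.0273 in limma. Without LV E10 replicate 1 it was 3.81 with an adjusted p of 0.00322. The call was lost without AVC E9 replicate 1 (adjusted p of 0.0505), AVC E10 replicate 3 (0.0542), LV E9 replicate 2 or 3 (0.0808 and 0.103) or LV E10 replicate 2 or 3 (0.108 and 0.0804), with differences of 2.90 to 3.22, and with the mean of all probes of the gene (1.97, adjusted p of 0.0595). In the AVC, Kcne1 read 392, 438 and 249 at E9 and 1153, 768 and 938 at E10. These groups did not overlap, and the difference was 1.43 ± 0.52 (SE) with an adjusted p of 0.289.

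Kcne1l also rose in the LV. It read 37.1, 55.2 and 1.64 in LV E9 and 888, 1546 and 2152 in LV E10. The lowest E10 value exceeded the highest E9 value by far, and the log2 difference was 6.58 ± 1.13 (SE) with an adjusted p of 0.0327 in limma. The single value of 1.64 weighs on that size, since without LV E9 replicate 3 the difference was 4.99 with an adjusted p of 0.00194. The call was lost without AVC E9 replicate 1 or 3, AVC E10 replicate 3, LV E9 replicate 1, or LV E10 replicate 2 or 3, where the difference ran from 6.29 to 7.24 and the adjusted p from 0.0520 to 0.121. In the AVC it read 92.6, 118 and 95.3 at E9 and 705, 669.9 and 778 at E10. These groups were far apart too, with a difference of 2.82 ± 1.13 (SE), or 7.06-fold, but the adjusted p was 0.349, and without LV E9 replicate 3 it was 0.0238.

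Kcnip3, a calcium-binding protein that associates with Kcnd channels, fell in the LV. It read 73.2, 55.8 and 75.5 in LV E9 and 5.53, 11.4 and 13 in LV E10, where it was above background on no array. LV E9 was therefore at least 2.70-fold higher than LV E10, and the log2 difference in limma was -2.85 ± 0.58 (SE) with an adjusted p of 0.0460. The call was retained without AVC E9 replicate 2, AVC E10 replicate 1 or LV E10 replicate 1 and lost without any 1 of the other 9 arrays, which were replicates 1 and 3 of AVC E9, 2 and 3 of AVC E10, 2 and 3 of LV E10 and the 3 LV E9 arrays, with differences of -2.77 to -3.09 and an adjusted p from 0.0533 to 0.149. In the AVC it read 43.6, 23.3 and 59.9 at E9 and 33.5, 8.22 and 10.8 at E10, with overlap and a difference of -1.45 ± 0.58 (SE; adjusted p of 0.345).

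For 3 of the genes called between the ages, RefSeq held 1 promoter window, and these 250 bases are shown in the same way (GRCm38.p6, 5′ to 3′), so that they can be read beside the windows of Kcna5 and Kcna6. They lie at chr11:33962763-33963012 on the plus strand for Kcnmb1, chr12:17176889-17177138 on the minus strand for Kcnf1 and chrX:142306199-142306448 on the minus strand for Kcne1l.
Kcnmb1: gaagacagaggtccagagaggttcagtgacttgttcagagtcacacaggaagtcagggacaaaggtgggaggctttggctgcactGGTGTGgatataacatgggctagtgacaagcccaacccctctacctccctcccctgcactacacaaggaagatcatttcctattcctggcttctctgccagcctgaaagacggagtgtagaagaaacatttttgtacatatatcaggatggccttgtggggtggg
Kcnf1: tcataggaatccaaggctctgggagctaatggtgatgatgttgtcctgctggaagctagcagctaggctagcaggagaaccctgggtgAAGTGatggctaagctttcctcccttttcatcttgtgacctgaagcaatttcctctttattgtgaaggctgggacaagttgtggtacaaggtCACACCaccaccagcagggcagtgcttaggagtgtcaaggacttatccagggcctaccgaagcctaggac
Kcne1l: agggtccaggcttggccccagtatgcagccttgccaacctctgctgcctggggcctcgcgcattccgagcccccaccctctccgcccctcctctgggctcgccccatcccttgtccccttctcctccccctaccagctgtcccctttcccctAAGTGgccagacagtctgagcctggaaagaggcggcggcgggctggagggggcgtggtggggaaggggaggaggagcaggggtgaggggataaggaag
Kcnmb1 held 1 match to GGTGTG, Kcnf1 1 match to GGTGTG on the opposite strand and 1 to AAGTG, and Kcne1l 1 to AAGTG. The Kcnmb1 window runs past the annotated gene start at 33962955, and its match lies before that start.

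**Figure D5:**
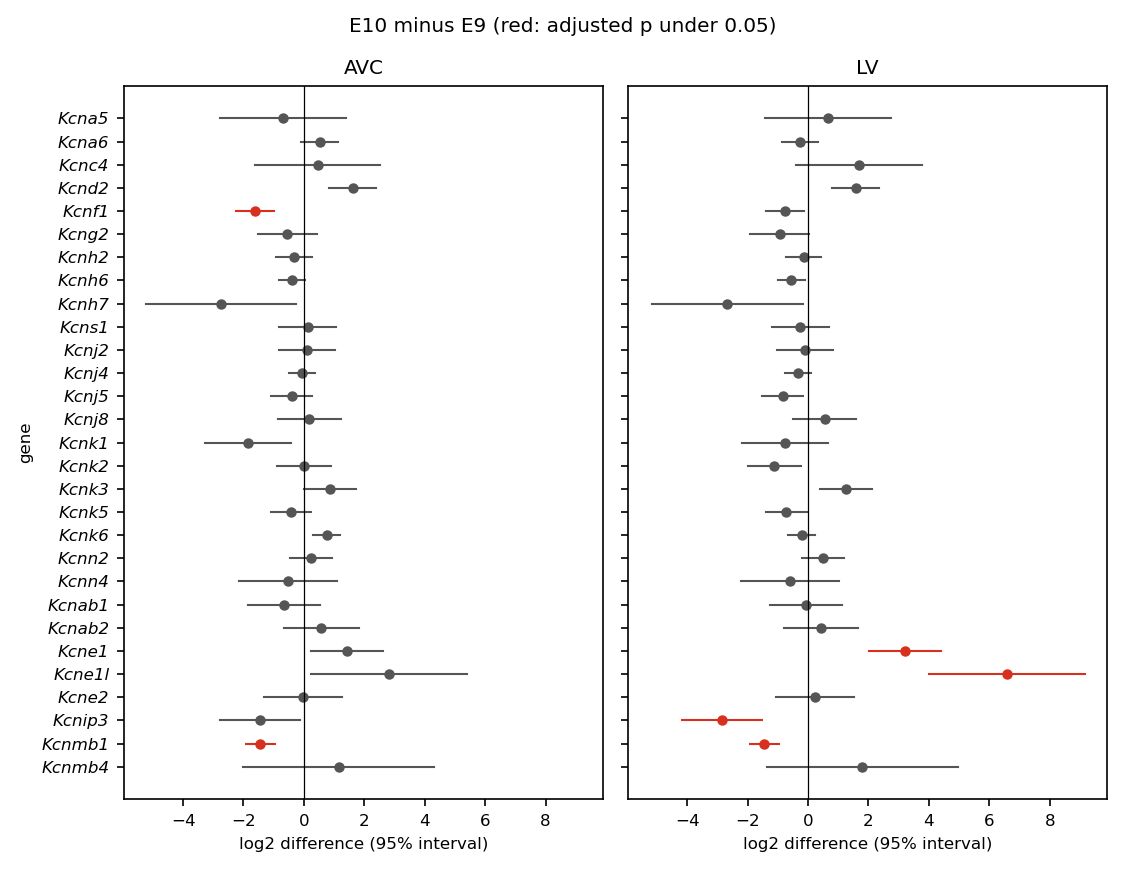
Log2 difference between E10 and E9 (horizontal axis, positive where E10 is higher) in AVC and LV for the 29 genes above background in at least 1 group (vertical axis), with 95% intervals from the limma fit; red marks an adjusted p under 0.05. Kcnmb1 is red in both regions, Kcnf1 in the AVC, and Kcne1, Kcne1l and Kcnip3 in the LV.

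The uncalled gene closest to the threshold was Kcnd2, a pore gene of the transient outward current. It read 10.3, 10.7 and 13.4 in AVC E9 and 28.8, 36.9 and 39.8 in AVC E10, and 28.9, 11.5 and 21.2 in LV E9 and 59.1, 42.4 and 75.6 in LV E10. It was above background in both E10 groups and in neither E9 group, and the ages did not overlap in either region. The differences were 1.62 ± 0.34 (SE; adjusted p of 0.0844) in the AVC, where E10 was at least 1.49-fold higher, and 1.58 ± 0.34 (SE; adjusted p of 0.0543) in the LV.

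Other larger age differences were not called. Kcnh7, another relative of Kcnh2, read 28, 32 and 33 in LV E9 and 20.1, 1.74 and 3.29 in LV E10, a difference of -2.67 ± 1.09 (SE; adjusted p of 0.222) that became -3.69 with an adjusted p of 0.0484 without LV E10 replicate 1. In the AVC it read 35.4, 17.9 and 28.5 at E9 and 15.4, -2.01 and 3.86 at E10. Kcnk1, a leak channel gene, read 169, 39.1 and 195 in AVC E9 and 21, 36.5 and 36.1 in AVC E10, a difference of -1.85 ± 0.63 (SE; adjusted p of 0.258). Kcnk3 read 90.8, 39.9 and 60.9 in LV E9 and 86.3, 181 and 192 in LV E10, a difference of 1.26 ± 0.37 (SE; adjusted p of 0.115).

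When only the groups compared were fitted, each of the calls named for the 4 comparisons was lost, with adjusted p from 0.0806 for Kcnip3 in the LV to 0.197 for Kcna5 at E9. Replicate 1 of LV E10, the array that resembled LV E9, bears on the LV count. Without it, 9 of the 88 genes were called between the ages in the LV in place of 4, the additions being Kcnd2, Kcnh7, Kcnk2, Kcnk3 and Kcnk5. Without LV E10 replicate 2 none was called in any of the 4 comparisons, and without LV E9 replicate 1, 2 or 3, LV E10 replicate 3, AVC E9 replicate 1 or AVC E10 replicate 3 the LV count was 1. It was 2 without AVC E9 replicate 3, 3 without AVC E10 replicate 2 and 4 without AVC E9 replicate 2 or AVC E10 replicate 1. The AVC age count was 0 without AVC E9 replicate 2 or 3, AVC E10 replicate 2 or 3, LV E9 replicate 1 or 2 or LV E10 replicate 2, 1 without AVC E9 replicate 1, LV E9 replicate 3 or LV E10 replicate 3, and 3 without AVC E10 replicate 1.

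The epicardium list also moved with age. Of its 4 measured genes, 1 was called higher at E10 in the AVC (Upk1b) and 2 in the LV (Tcf21 and Upk3b), and their summed intensity was 598 to 836 in AVC E9 and 4798 to 5314 in AVC E10, and 318 to 899 in LV E9 and 2856 to 6478 in LV E10. The part of these cells in the age results was not tested. The erythroid list was highest on replicate 1 of LV E10, with a summed intensity of 130463 against 100826 and 85173 on the other LV E10 arrays. On the same 3 arrays Kcnn4, a calcium-activated channel gene known from red cells, read 347, 100.4 and 58.1, and its differences between groups, from -0.59 to -0.31, lay within an SE of 0.71. The endothelial list was above background for 6 of 7 genes in every group, with Kdr on no array, and 1 of its genes was called higher in LV E10 than in LV E9 and 1 in AVC E10 than in LV E10. The hepatic endoderm list was also highest on replicate 1 of LV E10, with a summed intensity of 2782 against 557 and 111 on the other LV E10 arrays and 84.5 to 1211 on the arrays of the other groups. Its Ttr read 1826, 314 and 79.6 on the LV E10 arrays, its Afp 527, 114 and 9.71 and its Apoa1 326, 91 and 11.5, while Alb was above background on no array and no gene of the list was called in any comparison. The part of erythroid and hepatic cells in the LV age results was not tested, and the LV count without replicate 1 of LV E10 was the 9 given above.

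Whether the regional difference itself changed between the ages was tested as the tissue by age interaction. By limma, 0 of the 88 genes were called, against 0.0315% of all genes, and 5 reached an unadjusted p under 0.05 (4.71% of all genes). These were Kcnk6 (0.96 ± 0.28, SE; adjusted p of 0.694), Kcne1 (-1.79 ± 0.73), Kcne1l (-3.76 ± 1.60), Kcnj6 (3.65) and Kcnk15 (3.41), the last pair being above background on no array. Kcnk6 read 249, 233 and 178 in AVC E9, 261, 330 and 241 in LV E9, 297, 435 and 384 in AVC E10 and 273, 243 and 205 in LV E10, and a second probe gave 1.02. The effects called at one age or in one region were therefore not shown to differ between the ages or regions. Without AVC E10 replicate 1, 1 gene was called, the leak channel gene Kcnk13, which was above background on no array.

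The genes of the known cardiac potassium currents formed a list with 22 measured members. The number above background was 10 in AVC E9, 7 in LV E9, 11 in AVC E10 and 8 in LV E10. Over all genes, more were above background in AVC at both ages too. Of the 22, 1 was called between the regions at E9 (Kcna5) and 1 between the ages in the LV (Kcne1), with 0 called at E10 and 0 between the ages in the AVC. The median log2 difference was 0.35 at E9 and 0.20 at E10 between the regions, and -0.01 and 0.11 between the ages in the AVC and the LV.

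For the transient outward current, Kcnd2 was measured at E10 while Kcnd3, Kcna4 and the partner Kcnip2 were above background on no array. For the delayed rectifiers, Kcnh2 was above background on all 12 arrays, at means of 456 ± 43.2 in AVC E9, 338 ± 68.2 in LV E9, 376 ± 129 in AVC E10 and 305 ± 58.6 in LV E10 (SD, n = 3 arrays). The groups did not overlap between the regions at E9, by 0.45 ± 0.25 (SE) with an adjusted p of 0.614 in limma, and overlapped in the other comparisons. Its partner Kcne2 was above background as a group only in AVC E9, at 40.6, 30.2 and 29.6. Kcnq1, the pore that Kcne1 joins, exceeded the limit on 1 array of AVC E9 (27.2) and 1 of LV E9 (30.2) and on no E10 array. No level of Kcnq1 can therefore be set beside the rise of Kcne1.

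Among the inward rectifiers, Kcnj2, a main gene of the resting current, was above background as a group only in AVC E10, at 37.9, 27.2 and 36.3, and its relative Kcnj12 exceeded the limit on 1 array. Kcnj4, the third of that kind, lay between 29.8 and 53.2 on all 12 arrays. Kcnj5 was above background on every array, whereas Kcnj3, its partner in the acetylcholine-gated channel, exceeded the limit on 2 arrays, both of AVC E10. Of the ATP-sensitive pores, Kcnj8 was above background in both AVC groups, at 32.1, 32 and 33.1 at E9 and 29.6, 47.1 and 35.7 at E10, and on 2 of 3 arrays in each LV group, while Kcnj11 filled no group. Among the small-conductance genes, Kcnn3 was above background on no array and Kcnn1 on 3. The beta subunits Kcnab1 and Kcnab2, which bind the Kcna pores, were above background in all groups and overlapped in every comparison. The silent subunit Kcng2 read 448, 444 and 443 in AVC E9 and 743, 517 and 772 in LV E9, without overlap and with a difference of -0.58 ± 0.43 (SE; adjusted p of 0.702). Kcnk5, a further leak gene, had means of 115 to 187 in the 4 groups.

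A list of 16 partner genes from outside the family was read beside them. Only Amigo1, which encodes a membrane protein with cell adhesion domains, was called. It read 43.5, 39.8 and 41 in AVC E9, 34.2, 45.7 and 36.7 in LV E9, 39.2, 36.8 and 41.8 in AVC E10 and 17.9, 27.3 and 21.1 in LV E10. The LV E10 values were the low ones, 0.85 ± 0.16 (SE) below AVC E10 on the log2 scale (adjusted p of 0.0353) and 0.83 ± 0.16 (SE) below LV E9 (adjusted p of 0.0406). Abcc9, the sulfonylurea receptor that Kcnj8 and Kcnj11 need, was above background on all 12 arrays, with means of 93.2 in AVC E9, 249 in LV E9, 81.4 in AVC E10 and 189 in LV E10, while its relative Abcc8 exceeded the limit on 1 array.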

How the data were processed

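RNA of 12 samples was hybridised to Illumina Mouse WG-6 v2 arrays. The authors deposited intensity values per probe on a linear scale, background-subtracted and scaled to 1 mean per array; which program did so is not stated in the sources. The study's own comparisons used GeneSpring with fold and p thresholds after removal of signals below background.

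Values under 1 (36.8% of all) were set to 1 and log2 transformed, so log2 differences of dim genes depend on that floor. Platform annotation gave 34885 probes 1 gene, and 10378 probes without a gene and 18 with several were left out. All 88 members matched RefSeq. The 4 groups were fitted together with limma 3.58.1 (R 4.3.3), and two-sided p-values were adjusted by Benjamini-Hochberg over 19057 genes, with a call at an adjusted p under 0.05. Where no probe of a gene was above background in a group, the fold is a bound from the lowest detectable signal. Members named with values were those called, the 5 largest differences per comparison, the 10 highest means, Kcna5, Kcne1, Kcnmb1, Kcnip3 and the cardiac current list, with others added where a count turned on them. The members and lists were chosen with earlier results of these data known. Alternatives were other scalings, floors, filters, probe summaries, variance models, a replicate block, a t-test and leaving out each array.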

Additional observations from a re-analysis of the deposited data

Results flagged for a closer look

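Kcne1l was singled out because its regional difference pointed opposite ways at the 2 ages. At E9 all 3 AVC arrays (92.6 to 118) lay above the 3 LV arrays (1.64 to 55.2), a log2 difference of 2.76, and at E10 all 3 AVC arrays (669.9 to 778) lay below the 3 LV arrays (888 to 2152), a difference of -1.003. The interaction was -3.76 ± 1.60 (SE) with an unadjusted p of 0.0455 and an adjusted p of 0.937 in limma, so the change of direction was not called. Without LV E9 replicate 3, the array at 1.64, the difference at E9 was 1.16.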

How the results depend on the processing

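Under 23 alternatives the call was retained in 19 for Kcna6 at E10, 9 for Kcna5 at E9, 10 for Kcnmb1 and 8 for Kcnf1 in the AVC, and 17 for Kcnmb1, 14 for Kcne1, 15 for Kcne1l and 10 for Kcnip3 in the LV, with the same direction in all of them. Counts of called genes are given for the regions at E9, the regions at E10, the ages in the AVC and the ages in the LV, in that order. The main counts were 1, 1, 2 and 4. They were 0, 1, 0 and 5 after quantile normalization, 1, 1, 1 and 5 after scaling to the 75th percentile, 1, 2, 3 and 5 with a floor of 16, 2, 3, 3 and 6 with an offset of 32, 1, 2, 2 and 5 over genes above background alone, 1, 1, 1 and 2 with the mean of all probes, 1, 1, 2 and 4 with an intensity trend, and 0, 0, 1 and 0 with only the groups compared in the fit. The methods' t-test gave 0, 0, 1 and 0 after Benjamini-Hochberg and 1, 1, 1 and 3 at 4-fold and an unadjusted p of 0.01. For the interaction the count was 0 wherever it was run on all arrays. Leaving out 1 array gave 0 to 2, 0 to 2, 0 to 3 and 0 to 9, and 0 to 1 for the interaction. Without both LV E10 replicate 1 and AVC E9 replicate 2, a setting chosen after seeing the data, they were 0, 1, 5 and 10. The 29 genes above background became 19 at 2 times the limit and 35 when 2 of 3 arrays sufficed. Leaving out 1 array gave -0.32 (without LV E10 replicate 1, also with AVC E9 replicate 2) to 0.58 for Kcne1 between the regions at E10, and -0.54 (without LV E9 replicate 3) to 1.44 for Kcna5 between the ages in the LV. Neither was called.

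With the replicate block, counts were 0, 1, 0 and 4; it lost the calls of Kcna5 at E9 (adjusted p of 0.0827), Kcnmb1 (0.0570) and Kcnf1 (0.0783) in the AVC and Kcnip3 in the LV (0.0524), and Kcnd2 in the LV passed. Same-numbered arrays correlated above 0.1 in 9 of 18 pairs (r from -0.37 to 0.52), and since not every pair did and no label ties the numbers to a shared litter or day, they were not taken as pairs. That 8 of 12 arrays were closest to one of their own number is a hint from the data towards shared numbers, not part of the design. The cause of these changes was not tested.

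Scaling matters for small differences. Over the genes above background the median difference between AVC and LV was 0.08 at E9 and 0.18 at E10 as deposited, and -0.07 at both ages after scaling to the 75th percentile. Calls higher in AVC were then 96 of 203 in place of 163 of 195 at E9 and 148 of 283 in place of 392 of 438 at E10, and after quantile normalization 99 of 151 and 189 of 273. Calls higher at E10 were 50 of 103 in place of 82 of 105 in the AVC and 272 of 713 in place of 261 of 452 in the LV after scaling to that percentile. Differences of Kcnab1, Kcnab2, Kcnc4, Kcne2, Kcnf1, Kcnj4 and Kcnk5 between the regions at E10 changed sign under both scalings; none was called. Values near the limit of 22.4 to 29.6 restrict what can be said of the dim genes.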
